A study of Homo sapiens with 44 samples.

Results

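The 10 genes described here were CIITA, the master regulator of MHC class II transcription, and 9 genes of the class II pathway, namely CD74, HLA-DRA, HLA-DRB1, HLA-DRB5, HLA-DPA1, HLA-DPB1, HLA-DQA1, HLA-DQB1 and HLA-DMA. Their members were all peaks that the deposited table names for one of these genes, which gave 159 of 407383 peaks. Chromatin accessibility had been profiled by ATAC-seq, in which a transposase cuts open DNA, in Ccd18-Co, a line of human colon fibroblasts. The 44 libraries formed 11 groups of 4. One group was unstimulated, and the others received IL-1β at 0.1 ng/ml or, at 10 ng/ml, IFNγ, IFNα, TNF, oncostatin M (OSM), TGF-β1, IL-6, IL-13, IL-17A or IL-22, for 24 h after 72 h without serum. Doses are those of the labels and times those of the study's methods, and a figure legend of the study gives a lower IL-1β dose for this experiment, so that dose is uncertain. All groups were the same single cell line in culture, and whether replicates were separate cultures is not stated, so p-values measure the spread between these libraries only. On the plots the groups carry gene symbols (IL1B, IFNA, IFNG and TGFB1 for the 4 names with Greek letters).

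MHC class II molecules present peptides from endocytosed proteins to CD4+ T cells, and are made constitutively by dendritic cells, macrophages and B cells. Fibroblasts and other non-haematopoietic cells make them when exposed to IFNγ, which acts through JAK kinases to switch on CIITA from its promoter IV. CIITA binds no DNA itself. It is recruited to class II promoters by RFX, CREB and NF-Y bound to neighbouring X and Y boxes.

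Values are coverage per megabase (Mb) of a library's total coverage after a composition factor. A read adds 75 bases where it lies wholly in a peak, so 1 read was worth 0.0951 to 0.518 per Mb across libraries. Library totals ran from 148.8 Mb in IL-6 replicate 4, the shallowest library, to 823.1 Mb. Changes are differences on the log2(coverage per Mb + 0.5) scale ± SE from limma, and a peak was called where its Benjamini-Hochberg adjusted p over all 407174 tested peaks was under 0.05. Of the 159 members, 155 passed the filter on low values, and the other 4 were named for HLA-DRB5 and had means of at most 0.112 per Mb. In a bulk sample, a larger share of open cells and more opening in each cell cannot be told apart. At the leading promoter peaks of the fibroblast genes COL1A1 and COL1A2, unstimulated levels were 23.8 ± 2.58 and 13.2 ± 1.34 per Mb (SD, n = 4), against 0.781 ± 0.0908 at CD14 and 2.63 ± 0.783 at CSF1R, both myeloid markers.

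The sequence below is the 200 bases before an annotated CIITA start (GENCODE v44, build hg38), shown because its peak carries a main result. Capitals mark letters of a search made after the sequences had been read. They are CACGTG, the core of an E box, and GAAANNGAA, a form of the element bound by interferon regulatory factors. The window lies at chr16:10878769-10878968 on the plus strand.
CIITA promoter IV: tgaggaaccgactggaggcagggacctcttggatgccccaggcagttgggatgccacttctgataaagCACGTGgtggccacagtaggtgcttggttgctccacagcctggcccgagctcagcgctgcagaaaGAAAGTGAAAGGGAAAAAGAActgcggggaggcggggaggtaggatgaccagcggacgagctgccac

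On both strands, CACGTG was found in 5.49% and GAAANNGAA in 5.44% of the same 200-base windows of 35116 RefSeq promoters (GRCh38.p14), and ACNGATG, a core of the X box, followed within 40 bases by ATTGG, the Y box bound by NF-Y, in 0.168%. Matches overlap each other in the GAAANNGAA run. To compare class II genes, the stretch from X core to Y box is given for 5 places that hold it, with both boxes in capitals. Stretches are read 5′ to 3′ on the gene's strand, except that of the HLA-DRA-named peak. It is read on the minus strand, whereas HLA-DRA lies on the plus strand.
HLA-DRB1: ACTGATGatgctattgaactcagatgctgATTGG
HLA-DRB5: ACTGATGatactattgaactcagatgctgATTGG
HLA-DRA-named peak beside HLA-DRB9: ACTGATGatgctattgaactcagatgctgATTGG
HLA-DQB1: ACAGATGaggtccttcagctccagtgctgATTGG
HLA-DMA: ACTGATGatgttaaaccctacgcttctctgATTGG

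The gap between the boxes was 22 or 23 bases in all 5. HLA-DRB1 and HLA-DRB5 were identical at 149 of 156 bases of their upstream windows when aligned on the X core, so reads of these paralogs may have been placed on either gene and their values are uncertain in that respect. The windows of HLA-DPB1, HLA-DQA1 and CD74 held no exact match to the pair. Among peaks of 500 bases, 6 of the 159 members (3.77%) held the pair against 0.629% of all peaks. The stretch at HLA-DRB1 is the same as that beside HLA-DRB9 and nearly the same as that at HLA-DRB5, so these members are not independent matches. These 6 were 2 peaks each named for HLA-DRA and HLA-DQB1 and 1 each for HLA-DRB1 and HLA-DRB5, and the 4 named for HLA-DRA, HLA-DRB1 and HLA-DRB5 were raised by IFNγ.

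With IFNγ, 24 of 155 tested members were raised and 0 were lowered, against backgrounds of 1.33% raised and 0.232% lowered among all tested peaks. The raised share of members was 15.5%. Raised peaks were named for 8 of the 10 genes, and CD74 held 9 of them, CIITA 4, HLA-DRA and HLA-DRB1 3 each, HLA-DPB1 2, and HLA-DRB5, HLA-DQA1 and HLA-DQB1 1 each. The median change over tested members was 0.18, against -0.01 over all tested peaks. Of 14 promoter-class members, 7 were raised, against 10 of 66 intronic, 5 of 53 distal and 2 of 22 exonic members.

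**Figure D1:**
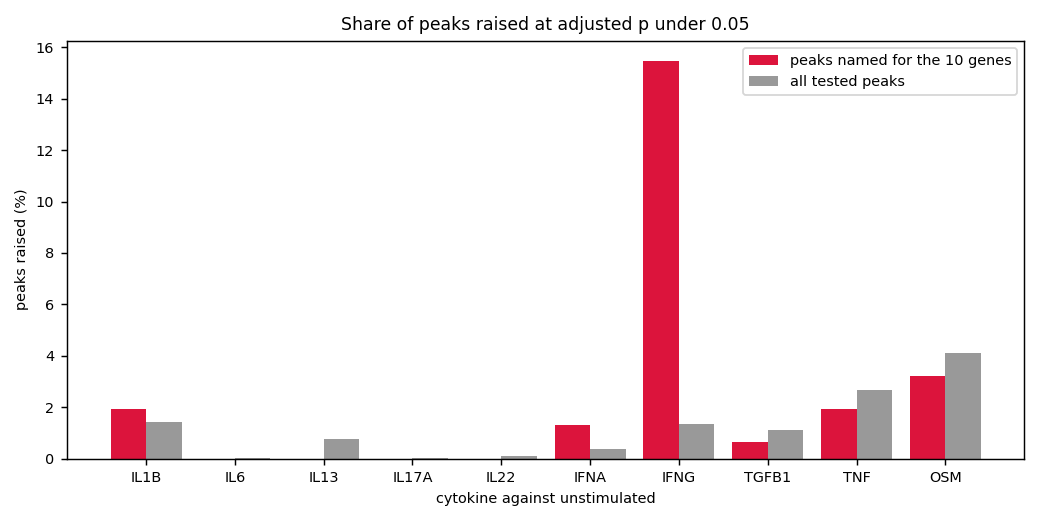
Bars give the percentage of peaks raised at adjusted p under 0.05 for each cytokine against unstimulated, for the tested members (red) and for all tested peaks (grey). The IFNγ bar for members stands at 15.5%, and the other member bars reach at most 3.23%.

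The CIITA peak at chr16:10878668-10879168, which the table classes as intronic, was centred at -51 from the start of CIITA-212 (positions are in bases, negative upstream) and covers the promoter IV window shown above. Its 4 unstimulated libraries held 2.01, 0.228, 2.88 and 1.10 per Mb, and the 4 IFNγ libraries held 9.95, 16.0, 12.6 and 13.1. The groups did not overlap, and the mean was 8.32 times higher with IFNγ (12.9 ± 2.46 against 1.55 ± 1.14, SD, n = 4 each). The change was 2.90 ± 0.30 (adjusted p = 1.88e-15). It was also raised by IL-1β (1.16 ± 0.30, adjusted p = 0.00782), IFNα (1.11 ± 0.30, adjusted p = 0.0452) and OSM (1.01 ± 0.30, adjusted p = 0.0236). IFNα libraries held 6.24, 3.42, 2.24 and 2.43 per Mb and overlapped the unstimulated range. IL-1β and OSM libraries overlapped it too, with the lowest at 2.61 and 2.36 per Mb. IFNγ exceeded IFNα there by 1.80 (adjusted p = 1.15e-05). The IL-1β call was lost without unstimulated replicate 2, and the OSM call without unstimulated replicate 2 or 4, without OSM replicate 1, 2 or 4, or with any of the 3 other scalings.

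The leading CIITA promoter peak, chr16:10876839-10877339, was centred at -109 from the start of CIITA-213, at promoter III, the promoter used by B cells. Unstimulated libraries held 0.657, 0, 1.13 and 0.532 per Mb, and IFNγ libraries 4.70, 4.76, 4.24 and 4.17. The groups did not overlap, and the change was 2.32 ± 0.39 (adjusted p = 2.44e-06). No other cytokine was called at this peak. In the order of group means, IFNγ stood first at 4.47 ± 0.302 per Mb, followed by TNF at 1.53 ± 0.710 and IL-1β at 1.47 ± 0.601, with unstimulated last at 0.580 ± 0.465. Between IFNγ and TNF the two-sided exact permutation test gave p = 0.0286, the smallest that 4 against 4 allow, and 0.286 after adjustment over the 10 neighbouring pairs. None of the other 9 pairs had an exact p below 0.371.

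Further along CIITA, the peak at chr16:10879172-10879672 rose by 1.55 ± 0.35 with IFNγ (adjusted p = 0.00239). The peak at chr16:10862408-10862908 is centred at -3564 from the nearest CIITA start, in sequence that GENCODE marks as intergenic. Its unstimulated libraries were all at or under 3 reads, and IFNγ libraries held 1.92, 1.78, 1.02 and 2.11 per Mb, at least 3.11-fold higher than the mean 3-read floor of the unstimulated libraries (adjusted p = 0.00459). It was raised by IL-1β too, at least 2.59-fold above that floor (adjusted p = 0.0201), a call lost without unstimulated replicate 1, 2 or 4 or IL-1β replicate 3 or 4. OSM lowered 1 CIITA peak, at chr16:10880538-10881038, from 0.834 ± 0.257 per Mb to 3 libraries at 0 and 1 at 0.237 (adjusted p = 0.0267), a call lost without unstimulated replicate 1 or 3 or OSM replicate 1, 2 or 3. The remaining 13 of the 18 CIITA peaks were called in no comparison with unstimulated.

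**Figure D2:**
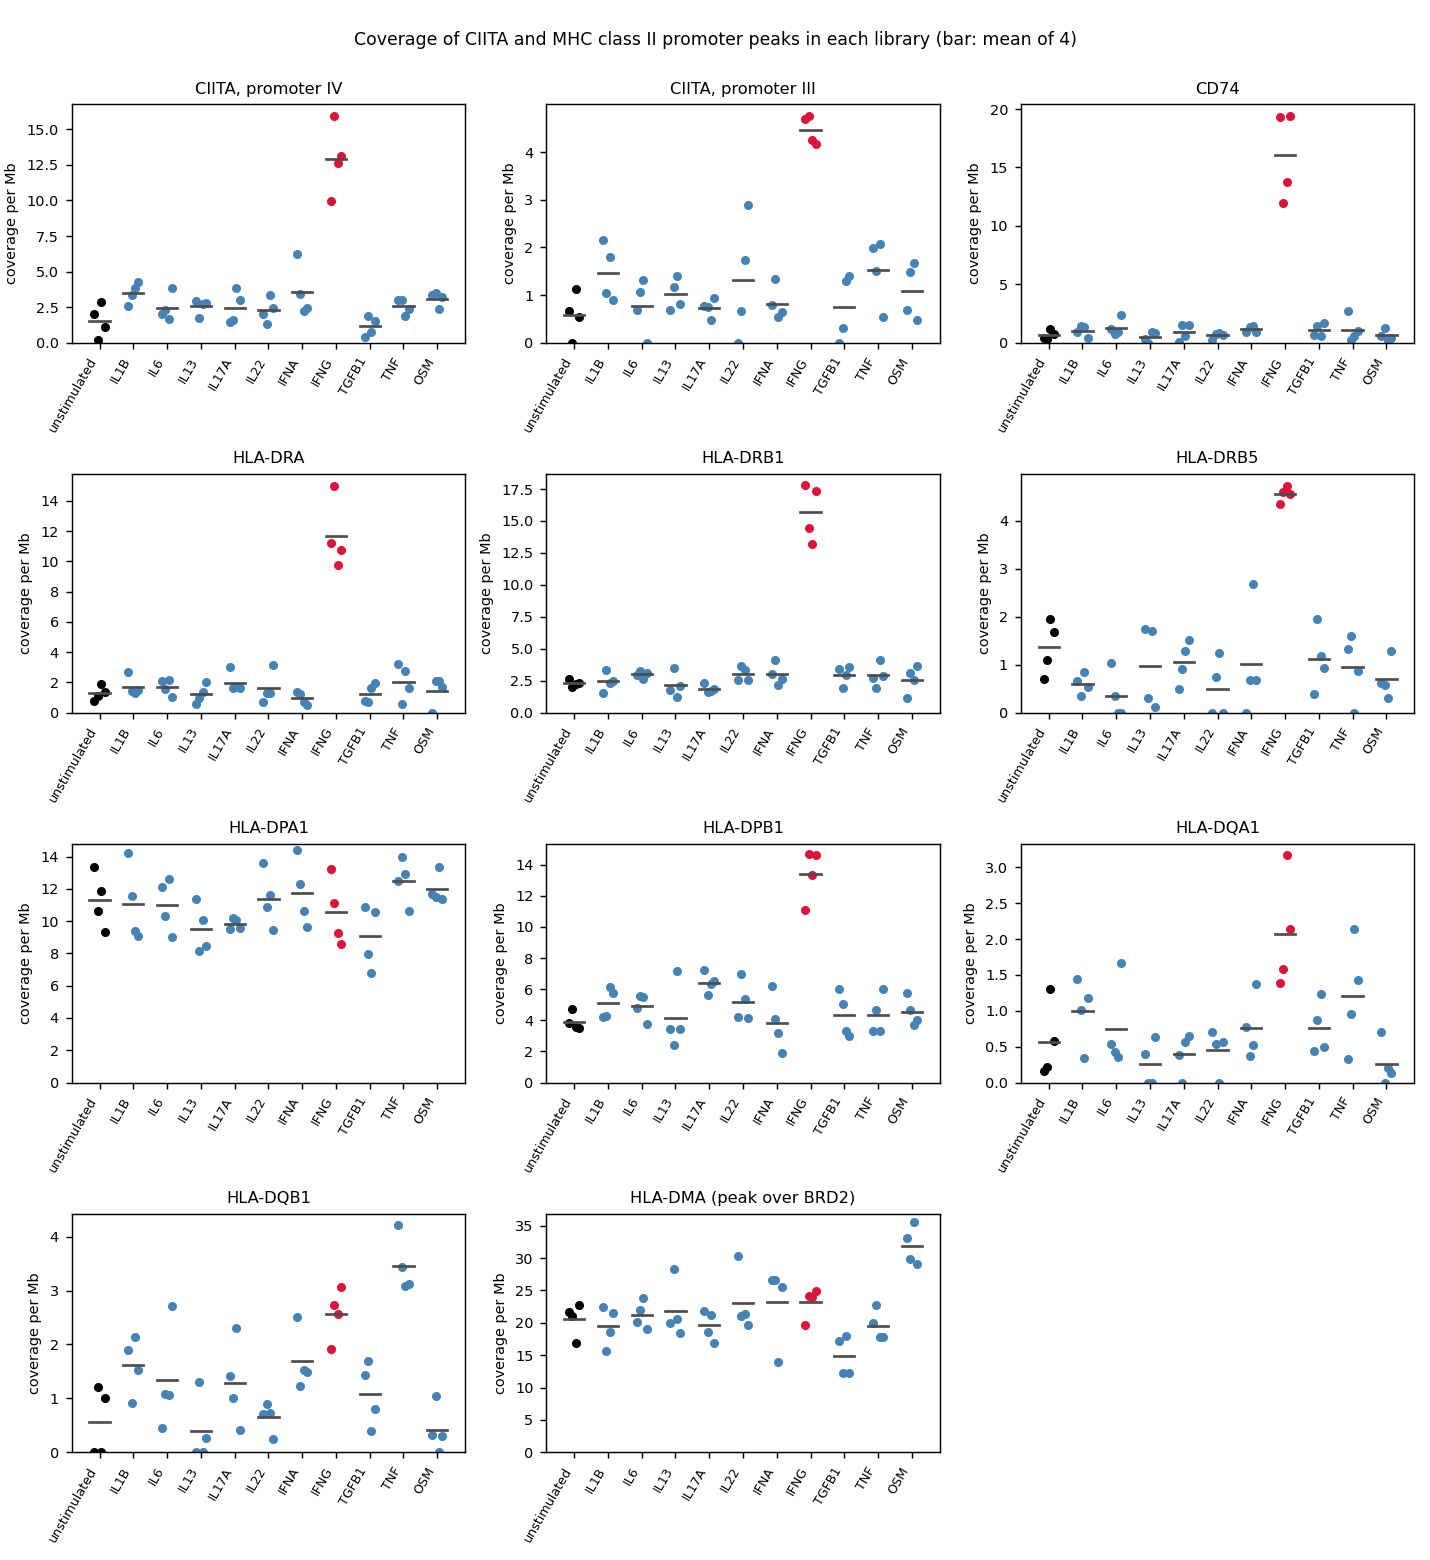
Points are coverage per Mb in each of 4 libraries for the 11 groups, with unstimulated in black, IFNγ in red and the other cytokines in blue, and bars mark group means. IFNγ libraries lie above all other libraries in the panels of both CIITA promoters, CD74, HLA-DRA, HLA-DRB1, HLA-DRB5 and HLA-DPB1.

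HLA-DRA encodes the invariant α chain of HLA-DR. At its promoter peak, chr6:32439568-32440068, unstimulated libraries held 0.784, 1.13, 1.88 and 1.35 per Mb and IFNγ libraries held 11.2, 15.0, 9.74 and 10.7. The groups did not overlap. The mean was 9.09 times higher, and the change was 2.79 ± 0.34 (adjusted p = 2.67e-11). IFNα libraries held 1.35, 1.23, 0.737 and 0.534, and IFNγ exceeded IFNα by 3.08 (adjusted p = 1.13e-12). In the order of group means on the log2 scale IFNγ came first and IL-17A next, with a difference of 2.31 (two-sided exact permutation p = 0.0286, 0.286 after adjustment). IFNα came last, and none of the other 9 neighbouring pairs had an exact p below 0.686.

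Members beyond the promoter rose with IFNγ as well. The HLA-DRA peak at chr6:32437364-32437864, centred at -2264 from the start, held 0.308, 0.743, 0.161 and 0.348 per Mb without stimulation and 6.02, 5.36, 6.75 and 6.60 with IFNγ, a change of 2.94 ± 0.36 (adjusted p = 3.80e-11). Another peak named for HLA-DRA, chr6:32473384-32473884, lies beside the start of the pseudogene HLA-DRB9 and holds the X to Y stretch given above. It rose from 0.847 ± 0.425 to 7.77 ± 1.54 per Mb (change 2.65 ± 0.38, adjusted p = 3.16e-08). The HLA-DRB1 distal peak at chr6:32604435-32604935 held 0.739, 0.190, 0.227 and 1.00 per Mb without stimulation and 6.66, 4.50, 8.77 and 4.14 with IFNγ (change 2.67 ± 0.39, adjusted p = 4.73e-08). All 3 were called higher with IFNγ than with each of the 9 other cytokines.

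CD74 encodes the invariant chain, which occupies the class II groove until peptide is loaded. Its promoter peak, chr5:150412640-150413140, held 0.404, 0.349, 1.14 and 0.759 per Mb without stimulation and 19.3, 11.9, 13.7 and 19.4 with IFNγ, the largest change among tested members in that comparison (3.86 ± 0.37, adjusted p = 1.31e-17). IFNα libraries held 0.916, 1.39, 1.41 and 0.961. Inside the gene, 7 more peaks were raised, at changes of 1.37 to 1.93. Among them the peak at chr5:150410486-150410986 rose from 4.01 ± 0.975 to 14.0 ± 1.97 per Mb, and that at chr5:150409698-150410198 from 9.74 ± 1.22 to 25.9 ± 2.57. The ninth CD74-named peak raised, chr5:150399341-150399841, lies in an intron of the neighbouring gene TCOF1, and its call was lost without unstimulated replicate 4. Inside CD74, the call at chr5:150407705-150408205 was lost without unstimulated replicate 1 or 3 or IFNγ replicate 3, and that at chr5:150408480-150408980 without unstimulated replicate 2 or IFNγ replicate 4. These calls and those at chr5:150408987-150409487 and chr5:150411204-150411704 were also lost with a pseudocount of 0.1.

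**Figure D3:**
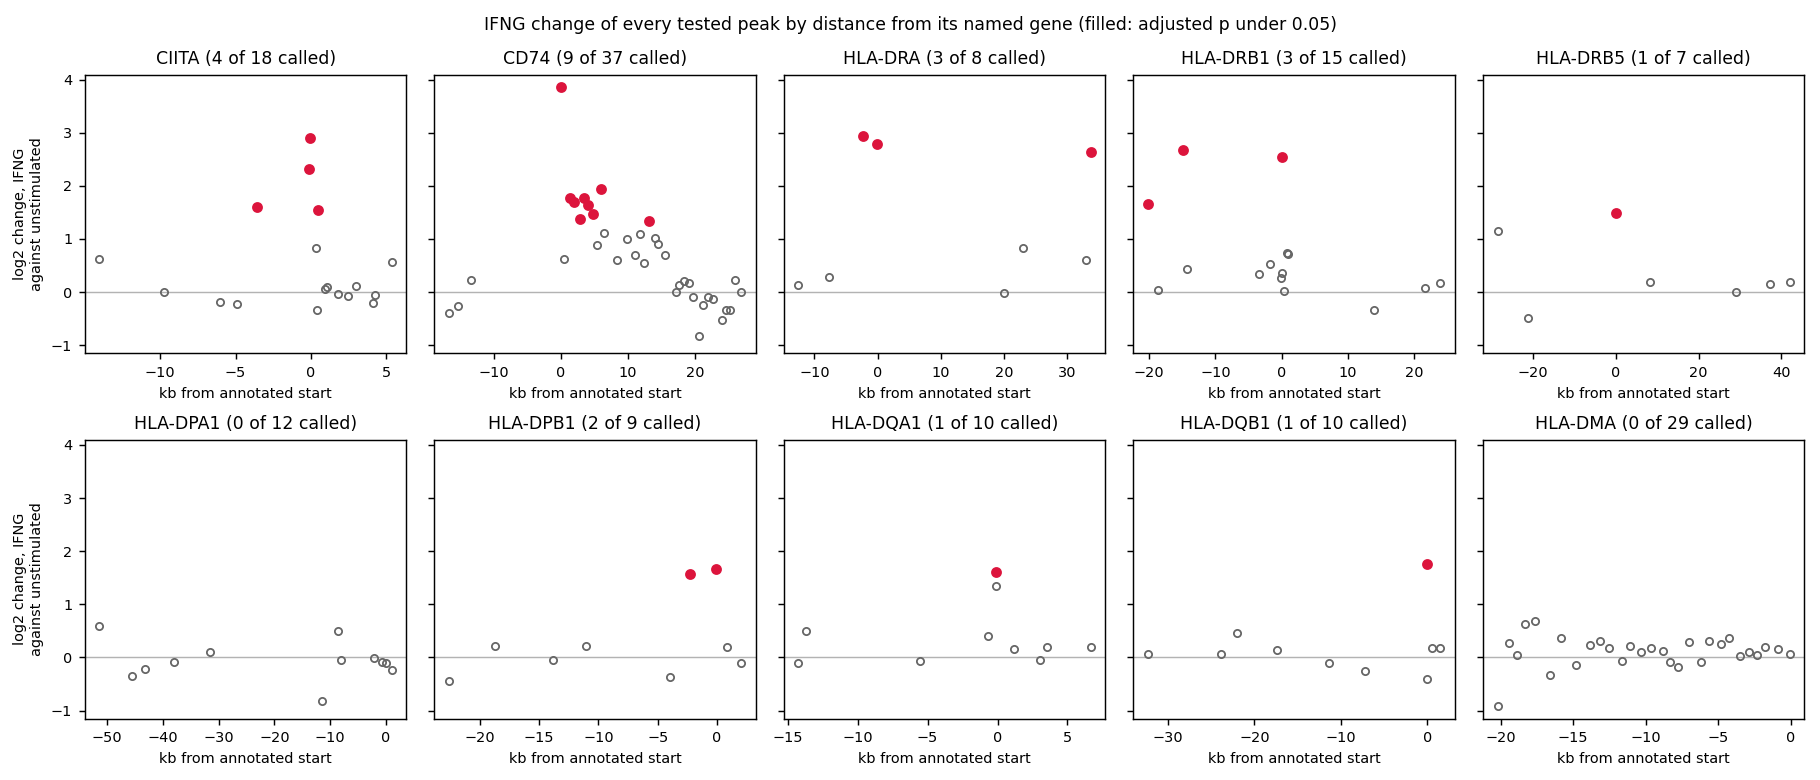
Each point is a tested member, plotted by the distance of its centre from the nearest annotated start of its named gene (kb, negative upstream) and its log2 change with IFNγ, filled where called. Of the 24 filled points 10 lie within 1 kb of a start of the named gene, against 27 of all 155, and in CD74 filled points extend along the gene body.

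HLA-DRB1 and HLA-DRB5 encode polymorphic β chains of HLA-DR. The HLA-DRB1 promoter peak, chr6:32589593-32590093, held 2.61, 1.97, 2.21 and 2.36 per Mb without stimulation and 17.8, 14.5, 13.2 and 17.3 with IFNγ (change 2.53 ± 0.28, adjusted p = 1.12e-13). The HLA-DRB5 promoter peak, chr6:32530061-32530561, held 0.703, 1.10, 1.94 and 1.69 and then 4.34, 4.59, 4.73 and 4.54 (change 1.496 ± 0.40, adjusted p = 0.0193). Neither pair of groups overlapped. As stated above, reads of these paralogs may have been placed on either gene. Peaks in HLA-DRB5 introns at chr6:32519505-32520005, chr6:32522283-32522783 and chr6:32526529-32527029 were too low to test. Their means over all libraries were 0.112, 0.0605 and 0 per Mb. Whether this line carries HLA-DRB5 was not tested. The HLA-DRB5 call was lost when any of 5 libraries was left out (unstimulated replicates 1 and 2 and IFNγ replicates 2, 3 and 4) or with a pseudocount of 0.1, with adjusted p from 1.98e-05 to 0.395 over the alternatives.

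HLA-DPA1 and HLA-DPB1 encode the chains of HLA-DP and lie head to head. The HLA-DPB1 promoter peak, chr6:33075649-33076149, held 3.83, 4.71, 3.54 and 3.50 per Mb and then 11.1, 14.7, 13.3 and 14.6 with IFNγ (change 1.66 ± 0.25, adjusted p = 5.18e-08). A peak named for HLA-DPB1, chr6:33073457-33073957, was centred at -58 from an annotated HLA-DPA1 start and rose from 1.83 ± 0.318 to 6.33 ± 0.417 per Mb (change 1.56 ± 0.36, adjusted p = 0.00273). That call was lost with a pseudocount of 0.1. The 12 peaks named for HLA-DPA1 itself included 0 called ones. The leading one, chr6:33080528-33081028, is centred in a coding exon of HLA-DPB1 and held 11.3 ± 1.72 per Mb without stimulation and 10.6 ± 2.09 with IFNγ.

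HLA-DQA1 and HLA-DQB1 encode the chains of HLA-DQ. The HLA-DQA1 peak at chr6:32627840-32628340, centred at -89 from the start of HLA-DQA1-204, held 0.808, 0.379, 1.12 and 1.46 per Mb and then 3.63, 4.25, 3.56 and 3.48 with IFNγ (change 1.61 ± 0.38, adjusted p = 0.00345). The call was lost without unstimulated replicate 2 or with a pseudocount of 0.1. The leading promoter peak of HLA-DQA1, chr6:32637047-32637547, missed the threshold (change 1.34 ± 0.40, adjusted p = 0.0505), although its libraries at 1.39 to 3.17 per Mb lay above the unstimulated range of 0.165 to 1.30. The promoter-class peak of HLA-DQB1, chr6:32668209-32668709, was centred at -76 from the start of HLA-DQB1-204. It was raised by both IFNγ (1.76 ± 0.38, adjusted p = 0.000893) and TNF (2.14 ± 0.38, adjusted p = 6.39e-06). TNF libraries held 4.21, 3.44, 3.08 and 3.12 per Mb, IFNγ libraries 1.91, 2.74, 2.57 and 3.07, and unstimulated libraries 0, 1.20, 0 and 1.02. IFNγ and TNF differed there by -0.37 (adjusted p = 0.757). The peak that holds the HLA-DQB1 X to Y stretch, chr6:32666522-32667022, was not called with IFNγ (change -0.41 ± 0.38, adjusted p = 0.835).

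HLA-DMA encodes a chain of HLA-DM, which exchanges the invariant chain fragment for peptide. Its 29 named peaks all lie between chr6:32968900 and chr6:32989564, and 18 are centred within the neighbouring gene BRD2. The 1 within 100 bases of an annotated HLA-DMA start, chr6:32968900-32969400, is centred at -56 from the start of HLA-DMA-204, in a BRD2 intron. It held 9.60 ± 0.799 per Mb without stimulation and 10.0 ± 1.32 with IFNγ. With IFNγ, 0 of the 29 were called, and the leading one, chr6:32969699-32970199, held 20.6 ± 2.58 per Mb without stimulation and 23.2 ± 2.40 with IFNγ. The peak at the HLA-DMA-201 start, chr6:32953004-32953504, is named for HLA-DMB in the deposited table and so is no member. It held 13.0 ± 2.53 per Mb without stimulation and 33.7 ± 4.36 with IFNγ (change 1.34 ± 0.16, adjusted p = 5.38e-12).

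In all, 16 of the 24 raised members were called higher with IFNγ than with each of the 9 other cytokines, which is 10.3% of tested members against 0.257% of tested peaks. The 8 that were not included the promoter-class peak of HLA-DQB1, which was higher than 3 of the 9. They also included the distant CIITA peak at -3564, which was higher than 1. These comparisons share the IFNγ libraries.

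**Figure D4:**
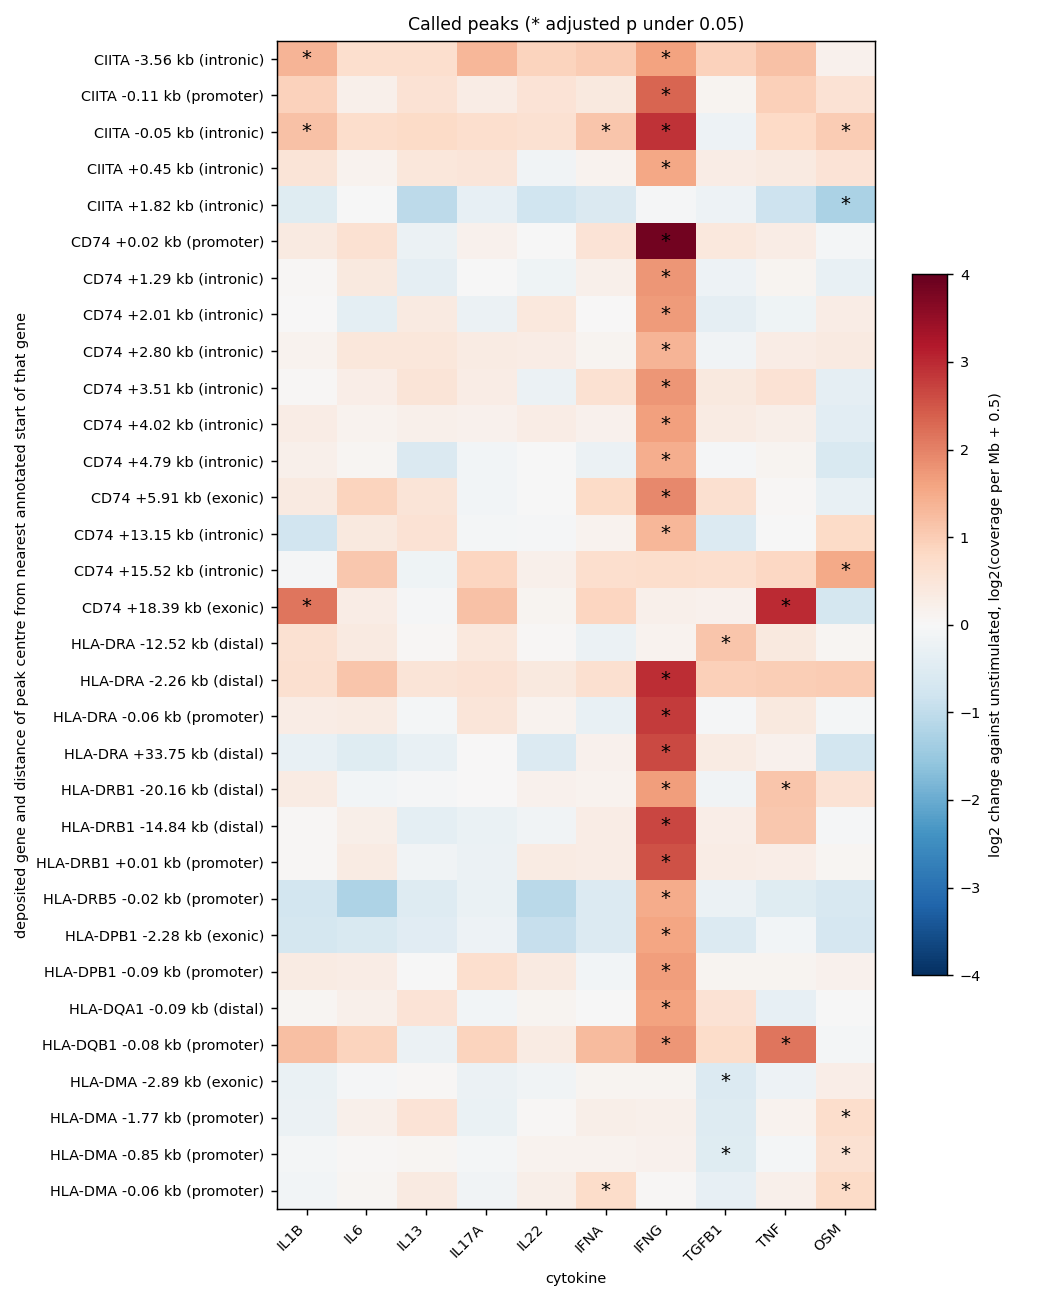
Rows are the 32 members called against unstimulated for at least 1 cytokine, and colours give the log2 change for each cytokine, with stars at adjusted p under 0.05. The IFNγ column holds 24 stars, all on raised peaks.

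The other cytokines called few members. TNF raised 3 and lowered 0 of 155, against 2.68% and 1.46% of all tested peaks. IL-1β raised 3 and lowered 0, against 1.44% and 1.75%. Both raised a CD74-named peak that lies in an exon of TCOF1, chr5:150394108-150394608, where TNF libraries held 25.0, 22.2, 18.0 and 22.3 per Mb, IL-1β libraries 12.0, 11.2, 10.2 and 14.5, and unstimulated libraries 2.51, 1.88, 4.06 and 1.34. The changes there were 3.00 ± 0.27 for TNF (adjusted p = 7.33e-21) and 2.15 ± 0.27 for IL-1β (adjusted p = 2.03e-11), and IFNγ libraries held 1.69 to 3.58 per Mb. TNF also raised the HLA-DRB1 distal peak at chr6:32609755-32610255 (1.10, adjusted p = 4.27e-05), to 12.4 to 13.8 per Mb from 4.83 to 8.18, while IFNγ libraries reached 15.5 to 22.6.

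IFNα raised 2 members and lowered 0, against 0.356% and 0.295% of tested peaks. They were the promoter IV peak of CIITA and the HLA-DMA-named peak at the HLA-DMA-204 start, chr6:32968900-32969400, centred in a BRD2 intron. At the latter, IFNα libraries held 22.5, 22.3, 10.6 and 13.3 per Mb and unstimulated libraries 8.56 to 10.4. Both IFNα calls were lost when unstimulated replicate 2 or 4 or IFNα replicate 1 or 2 was left out. OSM raised 5 and lowered 1, against 4.13% and 1.05%, while the median change of all tested peaks with OSM was -0.10. Of the 5, 3 were HLA-DMA-named peaks, and only 1 of the 5 was still raised when median-of-ratios or cyclic loess scaling was used. That 1 was a CD74-named peak in an intron of TCOF1, chr5:150396980-150397480. It rose from 0.406 ± 0.237 to 2.13 ± 0.793 per Mb with OSM (limma adjusted p = 0.00541). TGF-β1 raised 1 and lowered 2, against 1.10% and 2.87%, namely a distal HLA-DRA-named peak that rose and a pair of HLA-DMA-named peaks that fell, and cyclic loess scaling left 0. The calls at the HLA-DRA-named peak and at chr6:32969699-32970199 were also lost without unstimulated replicate 1, 2 or 4 or TGF-β1 replicate 2 or 4, and the first without TGF-β1 replicate 3.

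IL-13, IL-6, IL-17A and IL-22 called 0 members in either direction by limma, with 12, 9, 13 and 10 members at an unadjusted p under 0.05. Among all tested peaks, the raised and lowered shares were 0.756% and 0.645% for IL-13, 0.0344% and 0.0302% for IL-6, 0.0275% and 0.00295% for IL-17A, and 0.0803% and 0.00368% for IL-22. The count for IL-6 was also 0 without the shallow replicate 4.

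Other genes of the pathway were taken by their leading promoter peak or, for HLA-DQA2 and HLA-DQB2, which had none, by their highest peak, which was distal. Of 5 further class II genes with a peak, 2 were counted as raised by IFNγ. HLA-DOA, which moderates HLA-DM, rose by 2.59 ± 0.37 (adjusted p = 2.38e-08). HLA-DMB was counted by the peak named for it at the HLA-DMA-201 start, given above. That peak is centred at -12226 from the nearest HLA-DMB start, so it does not describe the start of HLA-DMB. Among 7 genes for the DNA-binding partners of CIITA, 0 were called with IFNγ, and RFX5 held 31.9 ± 2.57 per Mb without stimulation and 39.5 ± 1.61 with IFNγ. Of 6 genes between the receptor and CIITA, IRF1 (0.57 ± 0.13, adjusted p = 0.00142) and JAK1 (0.61 ± 0.18, adjusted p = 0.0408) were raised. The JAK1 peak was also raised by IL-22 (1.03), IL-17A (0.86), IL-6 (0.84), OSM (0.81) and IL-13 (0.64), with limma adjusted p from 0.000518 to 0.0316. OSM also raised the HLA-DMB-named peak at the HLA-DMA-201 start (0.53, adjusted p = 0.0285) and the IRF1 peak (0.42, adjusted p = 0.0228). These comparisons share the unstimulated libraries. Of 10 genes for antigen processing and costimulation, 0 were called with IFNγ.

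Markers of other cell types were read beside these results. Of 10 leukocyte and antigen-presenting cell genes, 1 was raised by IFNγ, an intronic peak of the B cell gene MS4A1 (1.32 ± 0.39, adjusted p = 0.0456). Its mean without stimulation, 0.114 ± 0.136 per Mb, was under the mean 3-read floor of the unstimulated libraries (0.548), and it held 1.07 ± 0.579 with IFNγ. The summed level of the 10 genes was 46.0 to 52.4 per Mb in IFNγ libraries and 38.3 to 47.6 in unstimulated libraries. CD14 held 1.98 ± 0.567 per Mb with IFNγ, which was not called (adjusted p = 0.231), and CSF1R held 2.92 ± 0.758. Of 5 endothelial and 5 epithelial genes, 0 were called with IFNγ. Of 10 fibroblast genes, the distal peak of THY1 was lowered by IFNγ (-0.76 ± 0.16, adjusted p = 0.000532) and 0 were raised. Summed fibroblast levels were 93.0 to 109.6 per Mb with IFNγ and 113.2 to 115.6 without. The part of these markers in the class II results was not tested.

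Among 4461 promoter-class peaks of other genes with a mean of at least 1 per Mb and a range of group means of at least 1 on the log2 scale, the pattern over the 11 group means most like that of the leading CIITA promoter was at GALNT6 (Pearson's r = 0.940), CCDC3 (0.895), KIF5B (0.894), IRF1 (0.888) and IL15 (0.887). For the HLA-DRA promoter it was at GBP5 (0.923), ALKBH3-AS1 (0.912), HLA-DOA (0.910), TCL1B (0.908) and TRAF2 (0.891). These values describe 11 groups that share the same libraries.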

How the data were processed

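The authors trimmed and aligned paired-end ATAC-seq reads to hg38 with the ENCODE pipeline, and per the labels used MACS2. The values the authors deposited are signal, the read coverage added up across the bases of each 500-base peak with no scaling and not a read count. They follow whole reads rather than transposase cut sites, which widens each insertion. The study describes a set of peaks of this width, built with ArchR from its single-cell ATAC-seq data, but whether the table uses that set is not stated. Coordinates are as deposited.

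Coverage was divided by library total and by a trimmed-mean composition factor (30% of log ratios and 5% of means trimmed at each end), 0.5 was added and log2 taken, which understates changes of low peaks. limma 3.58.1 in R 4.3.3 (eBayes with trend, group as the only term, all 44 libraries) was used in place of a count model because the unit is coverage. The 209 peaks whose log2 mean per Mb did not exceed -3 were not tested. The script was tested on simulated data. Floors are 3 reads and cover counting error only.

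Leading promoter peaks, called members (up to 20 for IFNγ, up to 3 in each direction for other cytokines) and the 5 most similar promoters were named by rule, and further peaks after their values were seen. The members and gene lists were chosen with earlier results of these data known. Alternatives were scaling, pseudocount, filter, replicate block, 2 groups only, leaving out each library, and members by position. Python 3.11.15 with scipy 1.17.1 made the exact tests. Some items of the sequence search are not reported here.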

Additional observations from a re-analysis of the deposited data

Results flagged for a closer look

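Of 121 groups of 4 libraries checked at the named peaks, 6 held 1 library whose gap to the others passed Dixon's critical value. Chance flags about 1 group in 20. At the HLA-DRA promoter, IL-1β replicate 1 held 2.66 per Mb against 1.32 to 1.47 in the other libraries, and IL-17A replicate 1 held 3.04 against 1.61 to 1.69. At the HLA-DPA1 peak, OSM replicate 3 held 13.3 against 11.4 to 11.7. At the HLA-DQA1 promoter, IL-6 replicate 4, the shallowest library, held 1.66 against 0.352 to 0.541. At the HLA-DMA-named peak, IFNα replicate 3 was lowest, at 13.9 against 25.5 to 26.7. At CIITA promoter IV, IL-13 replicate 2 was lowest, at 1.72 against 2.76 to 2.96. No comparison of these groups with unstimulated was called at these peaks.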

How the results depend on the processing

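The count of members called with IFNγ ran from 17 with a pseudocount of 0.1 to 26 over the alternatives. It was 19 when members were taken by position, a smaller set of 91 peaks in place of 159, so counts by position and by name are not on the same base. With a pseudocount of 0.1, 10 members in place of 16 were higher with IFNγ than with each other cytokine. Called members became 1 in that smaller set by position for IL-1β, TNF and TGF-β1. IL-13 had 1 with peaks of at least 1 per Mb and with 2 groups only. IL-17A had 1 with library totals alone, median-of-ratios scaling, cyclic loess, a pseudocount of 2 and 2 groups only. IFNα had 1 with a pseudocount of 0.1 or 2 and with 2 groups only. TGF-β1 had 0 with cyclic loess and 1 with a pseudocount of 0.1. OSM had 3 with median-of-ratios scaling, 2 with cyclic loess and 11 with 2 groups only. The cause was not tested. Leaving out 1 library gave 21 to 24 for IFNγ, 13 to 16 for members higher than with each other cytokine, 0 to 3 for IFNα, 0 to 1 for IL-13 and IL-17A, 2 to 4 for IL-1β, 4 to 7 for OSM, 1 to 4 for TGF-β1, 3 to 5 for TNF and 0 for IL-6 and IL-22. The gap of IFNγ to the next group ran from 1.08 to 1.41 at the leading CIITA promoter and from 2.03 to 2.40 at the HLA-DRA promoter. Over all pairs of a named peak and an alternative, 0 changes reversed, 72 no longer passed the threshold and 6 newly passed it.

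Replicate numbers did not pair the libraries, whose deviations correlated at a mean of 0.004 with the same number, and 10 of 44 matched their own number best. With the replicate number as a block, 25 members were called with IFNγ, 4 with IL-1β, 3 with TNF, 3 with TGF-β1, 6 with OSM and 2 with IFNα, and 16 were higher with IFNγ than with each other cytokine. Low peaks rest on few reads, with a 3-read floor of 0.285 to 1.554 per Mb.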
